A study of Mus musculus with 6 samples.

Results

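The Hox cluster genes are 39 protein-coding genes that lie in 4 clusters on 4 mouse chromosomes. They were taken from the GENCODE annotation by name, as every protein-coding gene called Hoxa, Hoxb, Hoxc or Hoxd followed by a number only. They make up 39 of the 35312 protein-coding and long non-coding RNA (lncRNA) genes measured, of which 21938 are protein-coding. The Hoxa cluster (11 members, chr6:52155590-52260880, minus strand) spans 105.3 kb, the Hoxb cluster (10 members, chr11:96194316-96368256, plus strand) 173.9 kb, the Hoxc cluster (9 members, chr15:102921103-103036852, plus strand) 115.8 kb and the Hoxd cluster (9 members, chr2:74668310-74765142, plus strand) 96.8 kb, all in mm10.

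Hox genes encode transcription factors with a homeodomain, a DNA-binding fold, and give cells their identity along the head-to-tail axis. All genes of a cluster are read in the same direction. Those with low numbers sit at the 3′ side and act in the hindbrain and neck, and those with high numbers sit at the 5′ side and act in the lumbar and tail region, limbs and genital tract. Genes with the same number in different clusters (paralogs) arose by duplication of the whole cluster. In embryonic stem cells the clusters are known as silent chromatin covered by Polycomb proteins, and cells of the spinal cord, oligodendrocyte precursors among them, are known to express Hox genes of their level of the axis.

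The study measured cap analysis of gene expression (CAGE) in nuclear RNA of cultured mouse cells. CAGE sequences a short tag from the 5′ end of capped RNA, so each tag marks where an RNA starts. The mESC group holds 3 libraries of R08, a mouse embryonic stem cell line, grown without feeder cells in serum medium with LIF, and the mOPC group holds 3 libraries of oli-neu, a line derived from mouse oligodendrocyte precursor cells, grown in proliferation medium with T3, thyroxine, bFGF and PDGF-BB. No other treatment or genotype is given, each cell type is 1 line, and each cell type has its own library label, so a difference between preparations and one between cell types cannot be told apart. The study uses the term biological replicate for cells of different passages, but the labels do not say whether this holds for the CAGE libraries, so the tests measure the spread between libraries, which may be technical. In addition, fewer cells with a transcript and less transcript per cell cannot be told apart in such bulk samples.

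Libraries held from 16657021 to 40928704 tags, and 3 tags correspond to between 0.0733 and 0.180 CPM (tags per 1000000 tags of the library). The most used single position of the genome held 0.508% to 0.667% of the tags in mESC libraries and 5.38% to 5.92% in mOPC libraries. Of 7 mESC markers all 7 were higher in mESCs, summing to 3475 to 3798 CPM in mESC libraries and to 22.9 to 24.9 in mOPC libraries, where 5 of the 7 had no tag. Of 7 mOPC markers 6 were higher in mOPCs, summing to 1519 to 1615 CPM there and to 7.23 to 8.16 in mESC libraries, while Nkx2-2, a defining factor of the lineage, had no tag in any mOPC library. Of all genes tested, 47.8% were called higher in mESCs and 43.4% higher in mOPCs. The microglia markers Aif1, Cx3cr1, Csf1r and Ptprc summed to at most 0.139 CPM in any library. The neuron, astrocyte and fibroblast lists summed to 10.3 to 10.9, 46.7 to 50.7 and 3.06 to 3.18 CPM in mESC libraries and to 81.3 to 101.9, 82.7 to 94.8 and 9.67 to 12.4 in mOPC libraries. Their members did not share 1 direction: Syt1, Slc1a3, Gfap and Col1a1 were called higher in mOPCs, and Rbfox3, Snap25, Tubb3, Aldh1l1 and Pdgfrb higher in mESCs. Syt1 averaged 3.45 CPM in mESCs against 88.3 in mOPCs, while Aldh1l1 averaged 8.48 against 0.0231. Rbfox3, Snap25 and the astrocyte marker Aqp4 had no tag in mOPC libraries, and the part of such cells in the Hox values was not tested.

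In mOPCs the members with the highest level were Hoxd3 and Hoxd4, which share a promoter. The stretch below (RefSeq, GRCm38.p6, chr2:74711743-74711956, plus strand, 5′ to 3′) runs up to 30 bases past the annotated 5′ end of Hoxd3, and capitals mark the 6 bases where at least 20 tags of the pooled mOPC libraries start. It held 818 mOPC tags, 16.9% of those counted for Hoxd3, and 547 of them started at the capitals. Most tags of the genes started farther downstream, outside the stretch.

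Hoxd3 promoter: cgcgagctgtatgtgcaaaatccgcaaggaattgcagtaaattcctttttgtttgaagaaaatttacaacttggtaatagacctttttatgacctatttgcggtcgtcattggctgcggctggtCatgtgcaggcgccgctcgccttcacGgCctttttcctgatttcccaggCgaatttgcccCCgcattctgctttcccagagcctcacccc

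The clusters also hold microRNA genes, short RNAs that repress messenger RNAs through their seed, bases 2 to 8. The mature forms below (RefSeq, 5′ to 3′, seed in capitals) are shown because they fall into 2 groups with a common seed, each spread over more than 1 cluster, and because several lie downstream of starts described here. Mir10a lies in the Hoxb cluster (chr11:96317186-96317208) and Mir10b in an intron of Hoxd3 and Hoxd4 (chr2:74726074-74726096). Mir196b lies in an exon of Hoxa9 (chr6:52230129-52230150), and miR-196a is encoded in both the Hoxb cluster (chr11:96265187-96265208) and the Hoxc cluster (chr15:102973365-102973386).
miR-10a-5p: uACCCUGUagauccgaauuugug
miR-10b-5p: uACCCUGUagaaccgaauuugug
miR-196a-5p: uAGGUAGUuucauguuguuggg
miR-196b-5p: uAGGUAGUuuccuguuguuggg

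For each gene, tags were summed within 500 bp of every annotated 5′ end on the gene's strand. Levels are in CPM, given per library or as mean ± SD with n = 3 libraries per cell type. Since CAGE counts 5′ ends, levels of genes on this scale need no correction for gene length. The number of annotated 5′ ends summed differs between genes, such as 6 for Hoxd3 and 1 for Hoxa4, and was not corrected for. Most Hox genes were barely detected: 30 of the 39 stayed under a mean of 1 CPM in both cell types, and 4 (Hoxa6, Hoxb1, Hoxb2 and Hoxb5) had no tag in any library. Over all genes measured, 10152 of 35312 (28.7%) had no tag. Hoxc13 reached a mean of 1 CPM in mESCs, and Hoxd3, Hoxd4, Hoxa10, Hoxa7, Hoxd8, Hoxa4 and Hoxc10 did in mOPCs.

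All 3 mOPC libraries were above all 3 mESC libraries for 13 members, against 25.6% of all genes, and all mESC libraries were above all mOPC libraries for 8 members, against 26.6% of all genes. For the other 18 members the libraries of the cell types overlapped. Only 12 of the 39 members passed the filter on low counts, and a gene that passes through the cell type in which it is high had to differ, so the calls describe these genes one by one. With edgeR's quasi-likelihood test on the raw tags and a Benjamini-Hochberg adjusted p under 0.05 over 16707 genes, 10 members were called higher in mOPCs (background: 43.4% of all genes tested) and 1 member, Hoxc13, higher in mESCs (background: 47.8%). Without the filter, 34 of the members reported here were tested, and 12 were called higher in mOPCs and 13 higher in mESCs. In that fit 8245 of 25160 genes were called higher in mOPCs and 9933 higher in mESCs. The added members had at most 42 pooled tags in a cell type. In the fit with the filter, the median log2 fold change over all genes tested was -0.12 (mOPC over mESC).

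**Figure D1:**
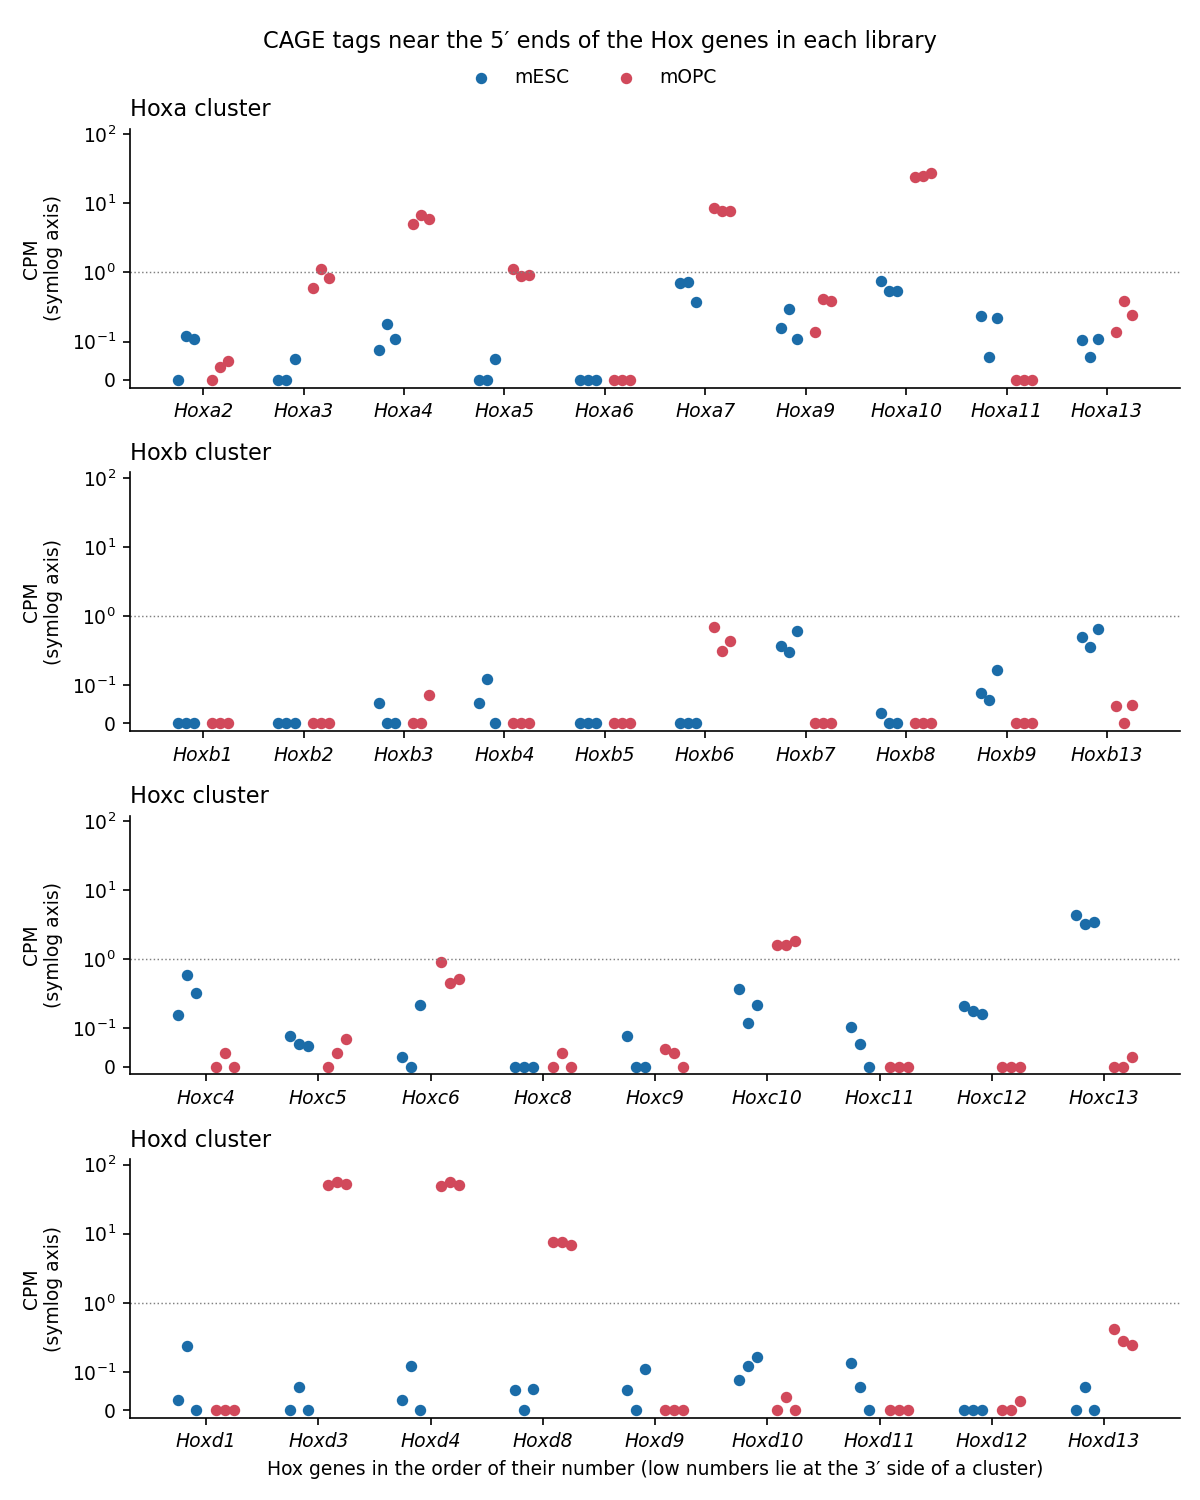
CPM within 500 bp of the annotated 5′ ends of each Hox gene reported (vertical symlog axis, linear near 0), 1 point per library, with mESC libraries in blue and mOPC libraries in red; genes follow their number from left to right and the dotted line marks 1 CPM. The mOPC libraries stand highest at Hoxd3, Hoxd4 and Hoxa10, at 23.9 CPM or more, and the mESC libraries stand highest at Hoxc13, at 3.24 to 4.33.

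In the Hoxd cluster, RNA starts of mOPCs lay at Hoxd3, Hoxd4 and Hoxd8, while the other 6 members stayed under 1 CPM in both cell types. Hoxd3, whose paralogs shape the neck and throat, had 1096, 1609 and 2126 tags in the mOPC libraries (50.0, 55.8 and 51.9 CPM) and 0, 1 and 0 tags in the mESC libraries. The 1 mESC tag makes the pooled ratio of 3845 uncertain, with an exact 95% binomial interval from 690 to 151888, which covers counting error only, as do all such intervals and bounds here (adjusted p = 2.16e-62, edgeR). Hoxd4, which acts in the hindbrain and upper spine, gave 49.3, 55.6 and 51.7 CPM in mOPCs and 1, 2 and 0 tags in mESCs (ratio 1273, interval 435 to 6173, edgeR adjusted p = 5.92e-62).

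These values are not independent, because the annotated 5′ ends of Hoxd3 and Hoxd4 lie at positions 74711927 and 74711929 of chromosome 2. Of all Hoxd4 tags 98.8% were also counted for Hoxd3, so the tags cannot be divided between the genes. Hoxd8, a gene of the trunk, had 7.57, 7.56 and 6.89 CPM in mOPCs and 2, 0 and 1 tags in mESCs (ratio 177, interval 60.2 to 859, edgeR adjusted p = 4.51e-37). At each of these 3 genes the libraries of the cell types were far apart.

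Towards the 5′ side of Hoxd, tags were few. Hoxd13, which patterns digits and the genital region, had 9, 8 and 10 tags in mOPCs and 0, 1 and 0 in mESCs, and Hoxd10, a gene of the lumbar spinal cord, had 0, 1 and 0 tags in mOPCs and 3, 2 and 3 in mESCs. Neither passed the filter. Hoxd9 and Hoxd11, both of the lumbar and limb region, and Hoxd1, the 3′ member of the cluster, had no mOPC tag and 4, 6 and 5 mESC tags in all, and Hoxd12 had 1 mOPC tag and no mESC tag. Without the filter on low counts, edgeR called Hoxd13 higher in mOPCs (adjusted p = 9.19e-05) and Hoxd1, Hoxd9, Hoxd10 and Hoxd11 higher in mESCs (adjusted p from 0.0134 to 0.0466). At Hoxd1, Hoxd9 and Hoxd11, however, the libraries of the cell types overlapped. For Hoxd9 the exact interval of the pooled ratio, mOPC over mESC, reached 1.21, which includes no difference.

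In the Hoxa cluster, 5 members, from Hoxa3 to Hoxa10 in position, were called higher in mOPCs. Hoxa10, a gene of the lumbar region and uterus, had the highest level of the cluster: 23.9, 25.1 and 27.5 CPM in mOPCs against 0.765, 0.540 and 0.543 in mESCs. Its log2 fold change was 5.22 ± 0.17 (SE) with an edgeR adjusted p of 7.29e-49. Hoxa7, which acts in the thoracic region, gave 8.62, 7.73 and 7.87 CPM in mOPCs and 0.713, 0.720 and 0.380 in mESCs (log2 fold change 3.61 ± 0.21 (SE), edgeR adjusted p = 6.89e-31). Most Hoxa10 starts lie over 100 bp from the annotated 5′ ends, and within 100 bp the gene did not pass the filter. Both genes were above 0.3 CPM in every mESC library.

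Hoxa4, a gene of the neck region, had 5.11, 6.73 and 6.03 CPM in mOPCs and 3, 3 and 2 tags in mESCs, which is 0.123 ± 0.0519 CPM (log2 fold change 5.65 ± 0.30 (SE), edgeR adjusted p = 1.13e-32). Hoxa3 and Hoxa5, needed for the thymus and the lung respectively, were weaker. Hoxa3 had 13, 32 and 34 tags in mOPCs and 0, 0 and 1 in mESCs (ratio 62.9, interval 11.0 to 2514, edgeR adjusted p = 4.27e-12). Hoxa5 had 25, 26 and 38 tags in mOPCs and 0, 0 and 1 in mESCs (ratio 70.8, interval 12.4 to 2829, edgeR adjusted p = 2.10e-13). At all 3 genes no mESC library reached the lowest mOPC library.

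Hoxa2, Hoxa9, Hoxa11 and Hoxa13 had few tags and did not pass the filter. Hoxa2, which patterns the second branchial arch, had 0, 2 and 2 tags in mESCs and 0, 1 and 2 in mOPCs. Hoxa9 had 6, 5 and 2 in mESCs and 3, 12 and 16 in mOPCs, and Hoxa13, a gene of digits and the genital tract, had 4, 1 and 2 in mESCs and 3, 11 and 10 in mOPCs. Hoxa11, needed for the kidney and forearm, went the other way, with 9, 1 and 4 tags in mESCs and none in mOPCs, at least 5.86-fold higher in mESCs when 3 tags are allowed over the pooled mOPC libraries.

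The Hoxc cluster was divided along its length. Hoxc13, its 5′ member and a gene of hair and nails, had 4.33, 3.24 and 3.53 CPM in mESCs and 0, 0 and 1 tags in mOPCs. The ratio of pooled tags, mESC over mOPC, was 356 with an interval from 63.3 to 14095 (edgeR adjusted p = 3.97e-31). Next to it, Hoxc12 had 8, 3 and 3 tags in mESCs and none in mOPCs, at least 4.17-fold higher in mESCs, and Hoxc11, a gene of the lumbar region, had 4, 1 and 0 tags in mESCs and none in mOPCs.

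For Hoxc10 and Hoxc6 the direction was the opposite. Hoxc10, known from motor neurons of the lumbar cord, gave 1.60, 1.63 and 1.86 CPM in mOPCs and 0.370, 0.120 and 0.217 in mESCs (log2 fold change 2.58 ± 0.32 (SE), edgeR adjusted p = 6.83e-12). Hoxc6, known from the brachial cord, gave 0.912, 0.451 and 0.513 CPM in mOPCs and 0.0264, 0 and 0.217 in mESCs (log2 fold change 2.97 ± 0.57 (SE), edgeR adjusted p = 1.55e-06), and without mOPC replicate 3 it did not pass the filter. The log2 fold change of Hoxc6 was 2.31 without mESC replicate 1 and 4.60 without mESC replicate 3, and that of Hoxc10 was 3.26 without mESC replicate 1. Hoxc8 and Hoxc9, which lie between them, and Hoxc5 had at most 3 tags in any library. Hoxc4, the 3′ member, had 6, 10 and 6 tags in mESCs and 0, 1 and 0 in mOPCs and did not pass the filter.

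In the Hoxb cluster no member reached a mean of 1 CPM in either cell type, and none passed the filter. Hoxb13, the 5′ member and a gene of the tail and prostate, had 19, 6 and 12 tags in mESCs and 1, 0 and 2 in mOPCs (ratio of pooled tags, mESC over mOPC, 15.5 with an interval from 4.91 to 78.6). Hoxb7, a gene of the trunk, had 14, 5 and 11 tags in mESCs and none in mOPCs, at least 9.60-fold higher in mESCs. Its neighbour Hoxb6 had no mESC tag and 15, 9 and 18 tags in mOPCs, at least 8.67-fold higher in mOPCs. Hoxb9 had 3, 1 and 3 tags in mESCs and none in mOPCs, and Hoxb3, Hoxb4 and Hoxb8 had at most 3 tags in any library. Without the filter on low counts, edgeR called Hoxb6 higher in mOPCs (adjusted p = 9.51e-09) and Hoxb7, Hoxb13, Hoxb9 and Hoxb4 higher in mESCs (adjusted p = 1.64e-09, 1.60e-08, 0.00674 and 0.0465). At Hoxb4, however, the libraries of the cell types overlapped. Its exact interval of the pooled ratio, mOPC over mESC, reached 1.21, which includes no difference.

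Among the members given above at 1 CPM or more in mOPCs, the order was Hoxd3 with Hoxd4, then Hoxa10, Hoxa7, Hoxd8, Hoxa4 and Hoxc10. The library ranges of neighbours in this order did not overlap, apart from Hoxd3 and Hoxd4, which share their tags. Below them, the ranges of Hoxa5 and Hoxa3 overlapped. Among all protein-coding genes, the mOPC level of Hoxd3 stood at percentile 81.6, that of Hoxa10 at percentile 68.3 and that of Hoxa4 at percentile 52.7. The mESC level of Hoxc13 stood at percentile 49.7 of the same genes.

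Set out by position, with every tag counted once within a class, the members numbered 1 to 4 held 57.2% of the Hox tags of mOPCs. Those numbered 5 to 8 held 16.4% and those numbered 9 to 13 held 26.4%. In mESCs the same classes held 20.8%, 13.3% and 66.0%. In mOPCs the first class was mostly Hoxd3 with Hoxd4 and the last mostly Hoxa10, since the Hoxd members numbered 1 to 4 alone gave 53.2 ± 2.95 CPM and the Hoxa members numbered 9 to 13 gave 26.1 ± 2.00. In mESCs the last class was mostly Hoxc13, since the Hoxc members of this class gave 4.20 ± 0.788 CPM. The levels therefore did not fall or rise evenly with position in either cell type.

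Summed over a cluster, the tags near 5′ ends were higher in mOPCs for Hoxa and Hoxd and higher in mESCs for Hoxb and Hoxc. Hoxa gave 3.38, 2.88 and 2.88 CPM in mESCs and 40.8, 43.5 and 45.0 in mOPCs, and Hoxd gave 0.370, 0.600 and 0.326 in mESCs and 58.5, 64.2 and 59.7 in mOPCs. Hoxc gave 5.33, 4.26 and 4.50 in mESCs and 2.55, 2.18 and 2.47 in mOPCs. Hoxb gave 1.08, 0.840 and 1.41 in mESCs and 0.730, 0.312 and 0.562 in mOPCs. The libraries of the cell types did not overlap in any cluster, and each exact two-sided permutation test gave p = 0.1, the smallest that 3 against 3 libraries allow. Hoxa and Hoxd together made up 97.3% of the Hox tags in mOPCs, and Hoxc alone made up 50.6% of those in mESCs.

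The strand opposite to the Hox genes carried about as many tags in Hoxa and Hoxd of mOPCs as the promoters did. It carried more than the promoters in Hoxc of both cell types and in Hoxa and Hoxb of mESCs. Antisense tags were counted over the whole cluster, and promoter tags only within 500 bp of 5′ ends. From the first to the last base of the members, antisense tags of Hoxa were 4.43, 4.98 and 4.99 CPM in mESCs and 45.7, 41.8 and 44.8 in mOPCs, and those of Hoxd were 0.581, 0.480 and 0.380 in mESCs and 66.9, 68.4 and 67.8 in mOPCs. Hoxc had 9.95, 11.5 and 12.4 CPM on the opposite strand in mESCs and 3.88, 3.61 and 4.54 in mOPCs. Hoxb had 2.53, 1.44 and 2.17 in mESCs and 0.0912, 0.0694 and 0.147 in mOPCs. Antisense and sense sums had the same direction in all 4 clusters, and again the libraries did not overlap (exact two-sided permutation test, p = 0.1 for each).

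**Figure D2:**
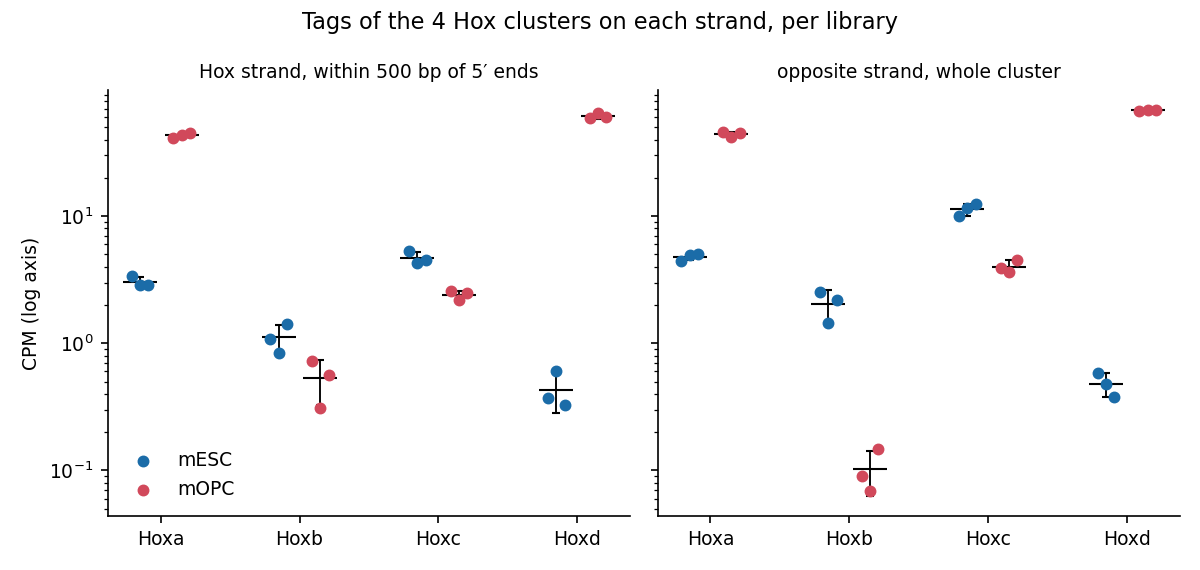
CPM (log axis) of the 4 clusters, on the Hox strand within 500 bp of 5′ ends (left panel) and on the opposite strand over the whole cluster (right panel); points are libraries, mESC in blue and mOPC in red, and black bars give the mean and SD of 3 libraries. The mOPC points stand above the mESC points at Hoxa and Hoxd and below them at Hoxb and Hoxc on both strands.

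Taken over all tags in the cluster, the antisense share was 42.7% ± 1.798 for Hoxa and 43.2% ± 0.501 for Hoxd in mOPCs, and 54.2% ± 3.44 and 43.1% ± 8.03 in mESCs. For Hoxc it was 50.5% ± 3.97 in mESCs and 53.8% ± 2.90 in mOPCs. Hoxb stood apart with 7.67% ± 2.03 in mESCs and 3.42% ± 1.99 in mOPCs, because its sense strand carried many tags outside the Hox promoters: 95.7% of its 1866 pooled sense tags in mESCs lay more than 500 bp from a Hox 5′ end. This share was 24.4% for Hoxa and 56.5% for Hoxc in mESCs, and 26.99% for Hoxa and 31.7% for Hoxd in mOPCs.

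**Figure D3:**
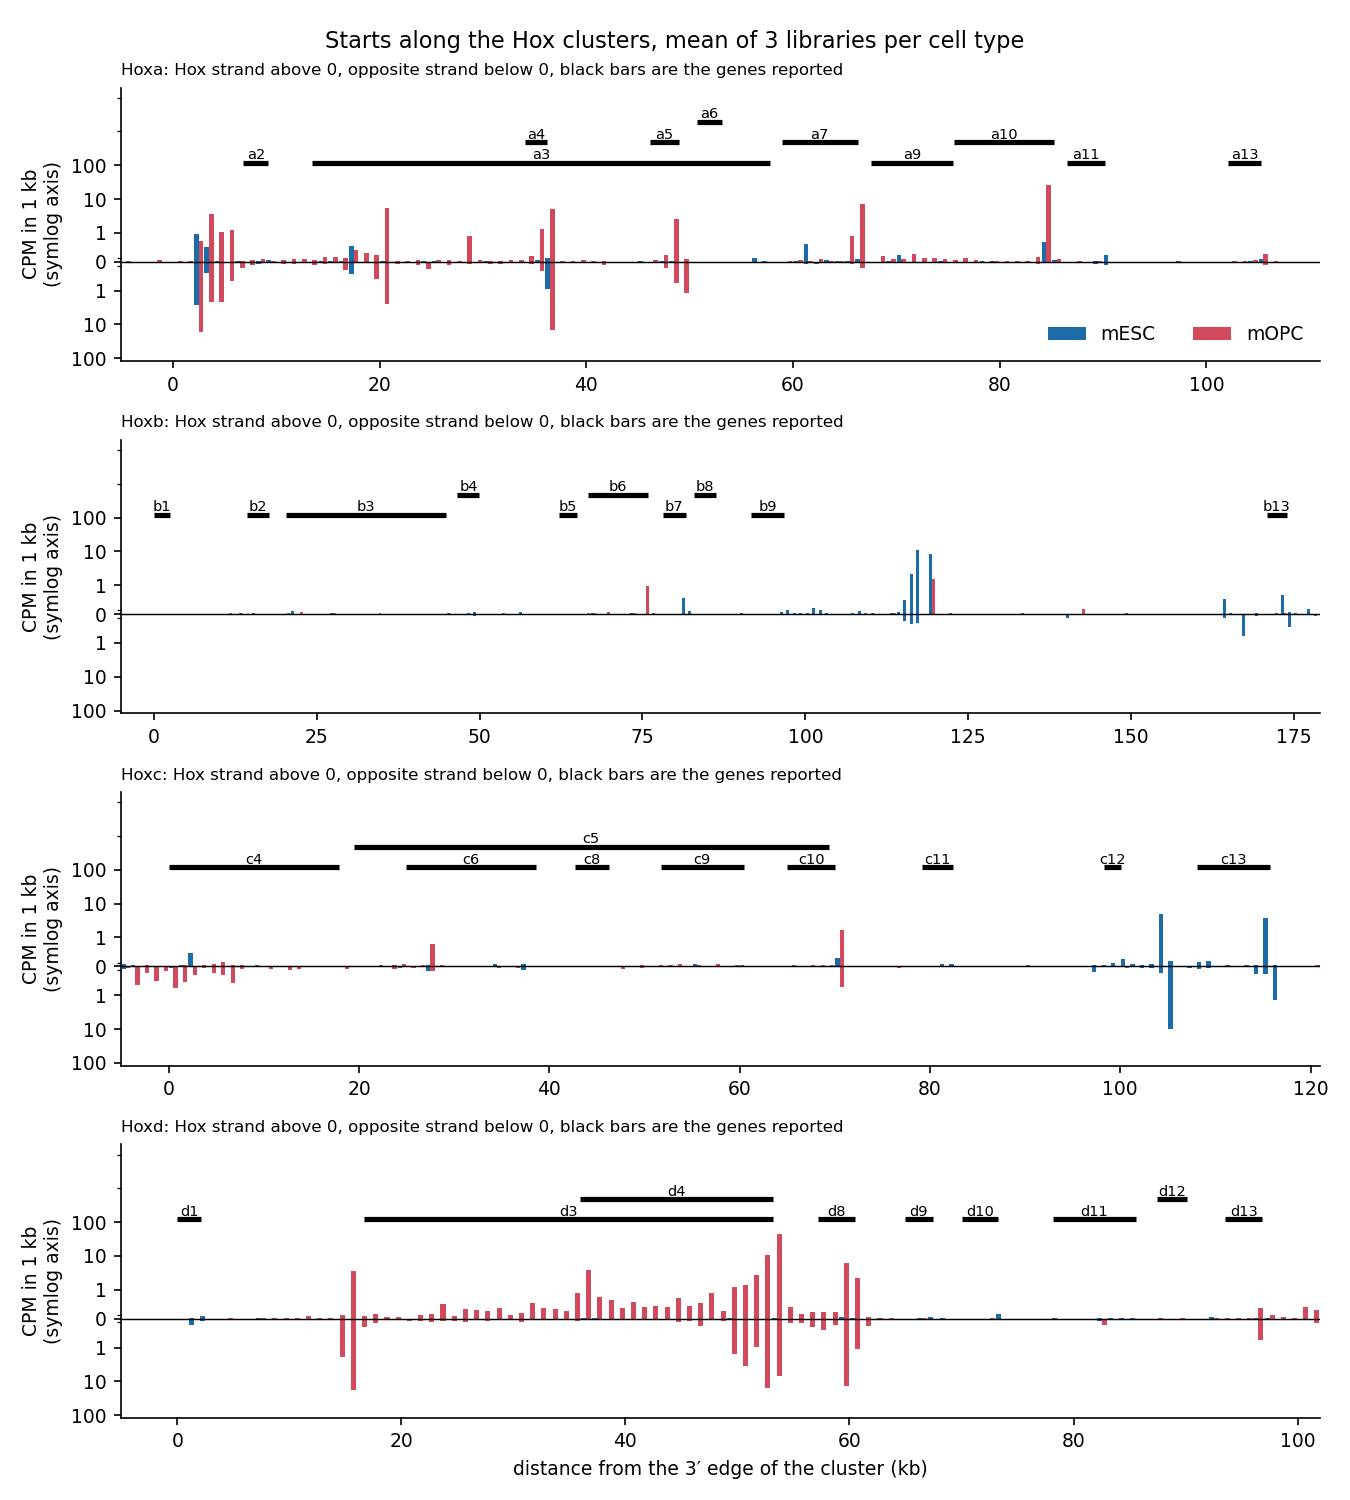
Mean CPM of 3 libraries in 1 kb steps along each cluster (symlog axis), by distance in kb from the 3′ edge; the Hox strand is drawn above 0 and the opposite strand below 0, mESC in blue and mOPC in red, with the Hox genes reported as black bars. In mOPCs the tags of both strands pile up at Hoxa4, Hoxd3 with Hoxd4 and Hoxd8. The highest mOPC steps of the opposite strand stand 15 kb from the 3′ edge of Hoxd (18.2 CPM) and 2 kb from that of Hoxa (16.7 CPM). In mESCs the tags stand on both strands near Hoxc12 and Hoxc13, and mostly on the Hox strand between Hoxb9 and Hoxb13.

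Annotated lncRNA genes accounted for part of these tags. Hotairm1, read from the opposite strand at the 3′ side of Hoxa and named for its induction in myeloid cells, gave 18.6, 18.1 and 19.7 CPM in mOPCs and 2.51, 3.00 and 3.36 in mESCs (log2 fold change 2.64 ± 0.14 (SE), edgeR adjusted p = 7.42e-33). Hoxd3os1, on the strand opposite to Hoxd3, had 498, 707 and 939 tags in mOPCs and none in mESCs, at least 462-fold higher in mOPCs (edgeR adjusted p = 6.86e-52). Haglr, which starts beyond the 3′ end of Hoxd3 on the opposite strand, had 35, 54 and 93 tags in mOPCs and 3, 1 and 1 in mESCs (log2 fold change 4.69 ± 0.42 (SE), edgeR adjusted p = 1.65e-18). All 3 were above every mESC library in every mOPC library.

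In the Hoxa cluster Hoxaas3 had 17, 17 and 24 tags in mOPCs and none in mESCs, at least 12.1-fold higher in mOPCs (edgeR adjusted p = 5.59e-11). Hoxaas2 (2, 11 and 4 tags in mOPCs against 0, 1 and 0) and Gm15050 (0, 0 and 4 against 11, 6 and 6 in mESCs) did not pass the filter. In the Hoxb cluster the lncRNA gene Gm53, read in the same direction as the Hox genes between Hoxb9 and Hoxb13, had 592, 219 and 233 tags in mESCs and none in mOPCs, at least 355-fold higher in mESCs (edgeR adjusted p = 6.58e-48). Gm53 at 13.8 ± 1.60 CPM was above every Hox member in mESCs.

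Starts also grouped at places where the annotation gives no 5′ end. Joining positions up to 20 bp apart gave 68 groups with at least 30 tags in the 4 clusters, 44 on the Hox strand and 24 on the opposite strand, and 39 of the 68 lay more than 500 bp from any annotated 5′ end on their strand. Libraries of the cell types overlapped in 1 of the 68 groups, and mOPCs were higher in 55 and mESCs in 12. A group can reach 30 tags through the cell type in which it is high, so part of this separation follows from the choice of groups. Of the 68, 31 had no mESC tag and 9 had no mOPC tag. No share over groups outside the clusters was measured here. Among the groups over 500 bp from such an end, the one with most tags on the opposite strand of Hoxa (chr6:52191911-52192058) began 234 bp upstream of the Hoxa4 5′ end, counted at its fullest position, and ran away from that gene. It gave 16.8, 12.6 and 15.1 CPM in mOPCs and 0.765, 0.961 and 0.868 in mESCs, which is above the Hoxa4 promoter itself in every library.

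In the Hoxd cluster, the group at chr2:74705689-74705929 on the opposite strand of the Hoxd8 coding sequence gave 12.3, 11.4 and 14.2 CPM in mOPCs and 1, 0 and 1 tags in mESCs. A further pair of groups on the opposite strand, at chr2:74749559-74749698 and chr2:74749796-74750001 inside an annotated exon of Haglr, gave 10.1 ± 0.713 and 7.80 ± 1.76 CPM in mOPCs and no tag in mESCs. The annotated 5′ end windows of Haglr itself gave 1.91 ± 0.340 CPM in mOPCs.

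In the Hoxc cluster, a pair of opposed start regions of mESCs lay upstream of Hoxc12, in sequence with no annotated gene. The antisense group (chr15:102931586-102931680) had 314, 171 and 196 tags in mESCs and none in mOPCs, at least 231-fold higher in mESCs. The sense groups (chr15:102931859-102931981 and chr15:102932007-102932148) had 83, 41 and 39 and 102, 38 and 53 tags in mESCs and none in mOPCs, and the nearer one began 4715 bp upstream of Hoxc12 at its fullest position. These starts together outnumbered those of every Hox member in mESCs.

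**Figure D4:**
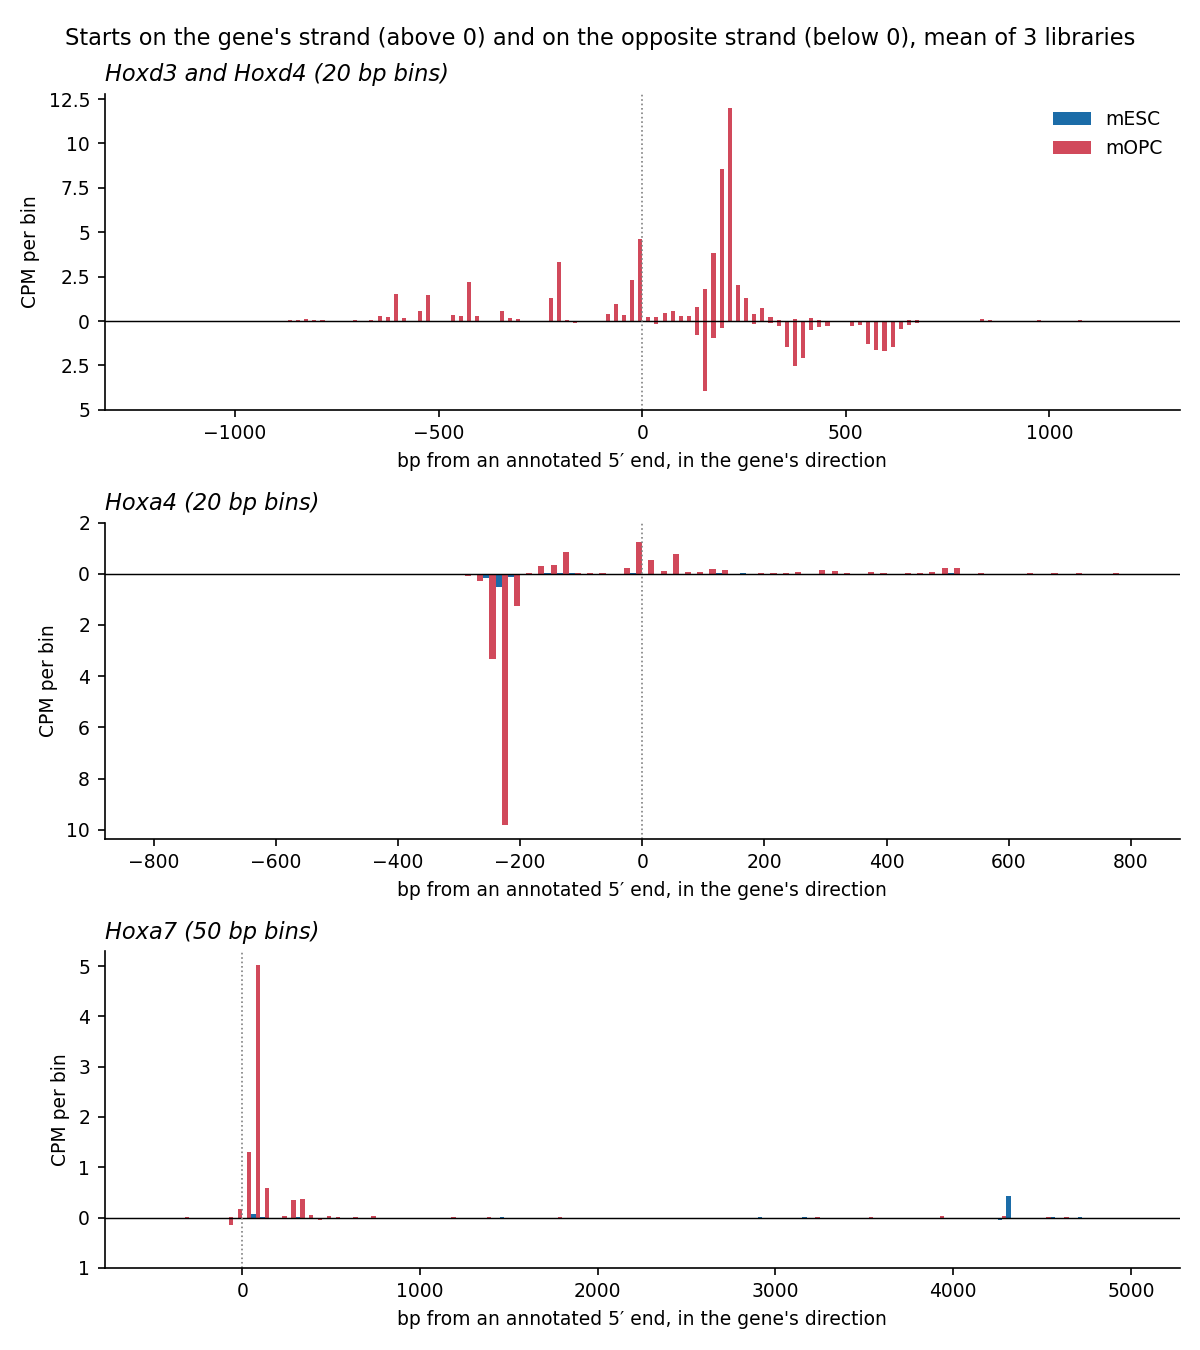
Mean CPM of 3 libraries per bin (20 bp, or 50 bp for Hoxa7) around an annotated 5′ end at 0, by distance in bp in the direction of the gene; the gene's strand is drawn above 0 and the opposite strand below 0, mESC in blue and mOPC in red. At Hoxd3 with Hoxd4 sense and antisense starts of mOPCs overlap downstream of 0, at Hoxa4 antisense starts stand upstream of 0, and at Hoxa7 the starts of mESCs stand over 4000 bp downstream of those of mOPCs.

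The starts of Hoxd3 with Hoxd4 in mOPCs were spread out. Between the 10th and 90th percentile of the Hoxd3 tags lay 444 bp, and the most used position, 74711928 within the sequence shown above, held 226 of 4831 pooled mOPC tags (4.68%). The fullest 20 bp bin lay 200 bp downstream of the 5′ end of Hoxd4, with 12.0 CPM. Further groups of mOPC starts lay upstream of the shared 5′ end, the nearest of them at chr2:74711693-74711756 with 94, 142 and 196 tags. Hoxa10 was the opposite case: 52 bp held the range between the 10th and 90th percentile, and 731 of its 2376 mOPC tags (30.8%) started at position 52240478, 317 bp downstream of the nearest annotated 5′ end and within the annotated 5′ untranslated part of the gene.

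Hoxa7 has several annotated 5′ ends, and the cell types used different ones. In mOPCs 166, 191 and 292 tags started in the group at chr6:52221716-52221906, near the most upstream annotated 5′ end, where mESCs had 7, 1 and 0. In mESCs 16, 9 and 6 tags started at chr6:52217513-52217544, near 5′ ends of shorter gene models, where mOPCs had none, at least 9.94-fold higher in mESCs. The mESC tags of Hoxa7 and its mOPC tags thus came mostly from different 5′ ends, and the log2 fold change above adds them together.

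For 4 of the microRNA genes shown above, the libraries of the cell types did not overlap at the nearest group of starts upstream on their strand. The same held for all but 1 of the 68 groups, and part of it follows from the choice of groups with at least 30 tags. The nearest group of starts upstream of Mir196b was that of Hoxa10, 10328 bp away, with 25, 8 and 9 tags in mESCs and 519, 721 and 1119 in mOPCs. Upstream of the miR-196a gene of the Hoxb cluster the nearest group lay 13722 bp away in Gm53, with 60, 34 and 39 tags in mESCs and none in mOPCs. Upstream of Mir10b the nearest lay 10905 bp away inside Hoxd3 and Hoxd4, with 17, 17 and 31 tags in mOPCs and none in mESCs. Farther upstream on that strand, the group at the shared 5′ end of Hoxd3 and Hoxd4 (chr2:74711823-74712307) was much fuller. It had 860, 1338 and 1727 tags in mOPCs and 0, 1 and 0 in mESCs. Upstream of Mir10a the nearest lay 24046 bp away in Hoxb6, with 16, 10 and 20 tags in mOPCs and none in mESCs. For the miR-196a gene of the Hoxc cluster the nearest lay 6579 bp away at Hoxc10. It had 7, 0 and 1 tags in mESCs and 4, 19 and 26 in mOPCs, and here the libraries overlapped. CAGE tags mark starts of capped RNA and do not measure the mature microRNAs.

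The protein-coding genes next to the clusters did not share 1 direction. Beside Hoxd, Evx2 at 8.75 kb, a homeobox gene that lies at the 5′ side, had no tag in any library, and Mtx2 at 60.7 kb on the 3′ side, a gene for mitochondrial import, gave 56.0 ± 4.34 CPM in mESCs and 117.6 ± 3.44 in mOPCs (log2 fold change 1.00 ± 0.08 (SE), edgeR adjusted p = 6.99e-20). Beside Hoxa, Evx1 had 1 tag in all and Skap2 was higher in mOPCs (log2 fold change 0.62 ± 0.08 (SE), edgeR adjusted p = 6.48e-11). Beside Hoxb, Ttll6 (log2 fold change -1.96 ± 0.22 (SE), edgeR adjusted p = 8.42e-14) and Skap1 (at least 33.8-fold higher in mESCs, with no mOPC tag) went with the cluster. Beside Hoxc, Calcoco1 (2.47 ± 0.11 (SE)) and Smug1 (1.72 ± 0.10 (SE)) were higher in mOPCs, opposite to the cluster sum (edgeR adjusted p = 4.01e-28 and 4.27e-31).

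Hox proteins bind DNA together with cofactors of the TALE homeodomain family, and all 9 of the 9 Meis, Pbx and Pknox genes were called higher in mOPCs (median log2 fold change 3.19, from 0.37 to 6.99), against 43.4% of all genes tested. Whether the list differs from this share was not tested. Pknox2 rose from 1.54 ± 0.191 to 207.9 ± 5.47 CPM (log2 fold change 6.99 ± 0.13 (SE), edgeR adjusted p = 1.43e-71) and Meis2 from 0.409 ± 0.140 to 37.5 ± 1.40 (6.57 ± 0.18 (SE), edgeR adjusted p = 4.12e-56). Summed over the list, the cofactors gave 68.3 to 72.7 CPM in mESC libraries and 465 to 476 in mOPC libraries.

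Of 15 known upstream regulators of Hox genes, 13 passed the filter. Of these, 8 were called higher in mOPCs and 5 higher in mESCs (median log2 fold change 0.51), against 43.4% and 47.8% of all genes tested. Whether this split differs from those shares was not tested. Cyp26b1, an enzyme that breaks down retinoic acid, and Gdf11, a signalling protein of the trunk, were highest in mOPCs relative to mESCs (log2 fold changes 5.07 ± 0.27 and 4.76 ± 0.11 (SE)). Cdx4, a transcription factor that activates posterior Hox genes, and Cyp26a1, a relative of Cyp26b1, gave 0.952 ± 0.0696 and 0.831 ± 0.0602 CPM in mESCs and had no tag in mOPCs.

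Polycomb genes encode the proteins that keep Hox clusters silent. Of 10 such genes, 4 were called higher in mOPCs and 6 higher in mESCs (median log2 fold change -1.28), against 43.4% and 47.8% of all genes tested. Whether this split differs from those shares was not tested. Suz12 and Eed, core parts of the complex that methylates histone H3, gave 458 ± 45.0 and 338.8 ± 2.76 CPM in mESCs and 64.1 ± 1.93 and 69.4 ± 3.15 in mOPCs (log2 fold changes -2.90 ± 0.09 and -2.36 ± 0.09 (SE)). Bmi1, of the complex that marks histone H2A, and Ezh1, a methyltransferase, were higher in mOPCs (2.22 ± 0.10 and 1.39 ± 0.09 (SE)). Summed, the Polycomb genes gave 1336 to 1428 CPM in mESC libraries and 470 to 486 in mOPC libraries.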

How the data were processed

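CAGE was measured in nuclear RNA of 3 mESC and 3 mOPC libraries. Per the paper's methods, the authors trimmed the reads, aligned them to mm10 with bowtie, kept unique alignments and recorded the 5′ end of each tag. The submitters' processing notes name BWA 0.5.9 and CASAVA 1.8 instead, and how far the notes and the methods describe the same run is not given in the sources used here. The deposited values are counts of tags per position and strand, not normalized, without molecular identifiers.

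Members and gene lists were chosen with earlier results of these data known. Hox genes, lncRNAs and 5′ ends came from GENCODE vM21, while the paper used another release. Tags within 500 bp of any annotated 5′ end on the gene's strand were summed, and a tag near several genes counted for each. Values were divided by the library total. The result of 1 member is not reported here, although sums over a cluster, and counts over the 39 members, hold its tags. Named genes are all members, lncRNA genes in a cluster with at least 10 such tags in a library, the nearest protein-coding gene on each side, and the 2 largest called changes per direction in each list of Hox cofactors, upstream regulators and Polycomb genes. Groups of starts, Hoxb13, Hoxd13 and other low members described beside these were chosen with values in view.

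Cell types were compared with edgeR 4.0.16 (R 4.3.3): quasi-likelihood test, robust fit, TMM scaling, filterByExpr and Benjamini-Hochberg adjustment over 16707 genes, called at an adjusted p under 0.05. Standard errors were taken from the fold change and the test statistic. DESeq2 1.42.0 was an alternative. The test was run on simulated counts of the 16707 genes, 200 of them changed by 2 (log2), with a coefficient of variation of 0.1. Of the 200 changed genes, 196 (98%) were found, and among 202 calls 6 (2.97%) were wrong. In the measured data 15238 of the 16707 genes were called. The simulation changed far fewer genes, so its rates cannot be carried over to the calls made here. Cluster sums were compared by exact two-sided permutation tests. With no tag in a cell type, the lower limit of the exact 95% interval of the pooled ratio is given as a bound. With 1 to 3 pooled tags the pooled ratio is given with that interval. A count of 0 was taken to allow 3 tags over the pooled libraries. Python 3.11.15, numpy 2.4.6, pandas 2.3.3, scipy 1.17.1 and matplotlib 3.10.9 were used. RefSeq promoter windows (GRCm38.p6) matched 22 of the 39 members. Other counting windows, scalings, filters, thinning, a replicate block and leaving out each library were tried.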

Additional observations from a re-analysis of the deposited data

Results flagged for a closer look

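The sums near annotated 5′ ends leave out groups of starts on the Hox strand that lie more than 500 bp from any annotated 5′ end at their fullest position. Beside the members reported here there were 11 such groups with at least 100 tags in 1 cell type, far above the 3 tags that a count of 0 allows, and the counts below are pooled over the 3 libraries of the cell type in which each is higher. Within the introns of Hoxa3 in mOPCs they held 162 tags (chr6:52175786-52175904) and 308 tags (chr6:52176066-52176195), more than the 79 mOPC tags at the annotated Hoxa3 5′ ends. In the Hoxa5 coding sequence in mOPCs 145 tags (chr6:52203826-52203908) were found.

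In the Hoxb cluster 610 mESC tags, and 133 mOPC tags, lay within 6 bp (chr11:96248597-96248602), and 95.4% of the tags of this group fell on a single position. Upstream of Hoxc12 in mESCs there were 163 tags (chr15:102931859-102931981) and 193 tags (chr15:102932007-102932148). In the Hoxd cluster all groups were of mOPCs: 213 tags (chr2:74711253-74711350) and 185 tags (chr2:74711373-74711406) upstream of Hoxd3, 191 tags in an intron of Hoxd3 and Hoxd4 (chr2:74713803-74714030), 232 tags in the 3′ part of Hoxd4 (chr2:74728783-74728824) and 288 tags beyond the 3′ end of Hoxd3 (chr2:74749919-74750104).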

How the results depend on the processing

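All 169 values of the 11 tested members reported here, under 16 alternatives, kept direction and side of the threshold where the member passed the filter. The 10 calls higher in mOPCs became 7 to 12, with 9 to 11 when 1 library was left out. The 1 call higher in mESCs became 13 without the filter on low counts, 2 within 1000 bp and 1 to 3 when 1 library was left out, the additions there being Hoxb13 (without any library but mESC replicate 1) and Hoxb7 (without mESC replicate 2 or mOPC replicate 1). From 11 to 15 of the members reported here passed the filter with 1 library left out, against 11 with all, and Hoxc6 was lost to the filter without mOPC replicate 3 and after thinning. Hoxa3, Hoxa5 and Hoxa10 did not pass it within 100 bp, Hoxc10 did not over the gene body, and Hoxd4 did not with shared positions left out, where the log2 fold change of Hoxd3 was 7.71 against 11.43. Beyond the filter, the cause was not tested. With a replicate block the counts were 10 and 1, the block changed no call of a member, and deviations of libraries with the same number correlated at -0.003, 0.060 and 0.006, so the numbers did not pair the libraries. On the log2 scale, mOPC over mESC, the sense sums moved within 100 bp to 2.54 (Hoxa), -2.56 (Hoxb) and 5.89 (Hoxd), and Hoxb to -0.24 within 1000 bp. Without positions near Hox 5′ ends, the antisense sums moved to 3.64 (Hoxa), -1.96 (Hoxc) and 7.53 (Hoxd). Leaving out 1 library moved no cluster sum beyond the spread of its libraries: Hoxb sense sums ranged from -1.35 to -0.78. Hox levels under about 0.1 CPM rest on a few tags per library.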
